A study of Mus musculus with 6 samples.

Results

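Trp53, the gene of the transcription factor p53, and 9 genes that p53 is known to switch on after DNA damage were followed in tumor-infiltrating regulatory T cells (Tregs). The genes were taken by symbol, and all 10 were among the 15319 genes listed in the deposited count table. RNA-Seq gave 3 libraries from WT mice (Foxp3 Yfp-Cre) and 3 from cKO mice (Foxp3 Yfp-Cre Xrcc6 fl/fl, labelled Xrcc6 knockout). Xrcc6, which encodes the DNA end-binding protein Ku70, was floxed in the cKO group only, and both groups carried the Cre recombinase driven from the Foxp3 locus. At 8 to 10 weeks of age the mice had received LLC cells, a mouse lung carcinoma line, by tail vein, and the lung tumors were taken after 21 days. The sources used here do not give the number of mice behind a library or the gate of the tumor sort, so p-values measure the spread between these libraries, which may be technical. Where 3 values stand in a row for a group, they are those of replicates 1, 2 and 3 in that order.

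p53 is kept low in unstressed cells by Mdm2, a ubiquitin ligase that is itself a p53 target. DNA double-strand breaks, which Ku70 helps to rejoin, stabilize p53 through the ATM and CHK2 kinases, and p53 then raises genes that stop the cell cycle, repair damage or start apoptosis. In T cells the pathway is known for removing thymocytes whose antigen receptor breaks are not repaired. p53 itself is controlled largely at the protein level, so its target genes are usually read as the record of its activity.

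Total counts ranged from 19032620 to 23159815, and Treg markers were abundant in every library, with Foxp3 at 150 to 282 CPM (counts scaled to a common library size with TMM factors) and Ctla4 at 875 to 1395 CPM. Xrcc6 stood at 20.9, 63.1 and 23.8 CPM (WT) against 5.24, 3.51 and 4.18 CPM (cKO), below every WT library as the labels imply. WT replicate 2 stood apart from the other libraries. It had counts for 11513 genes, against 14442 to 14737 elsewhere, and it read 0 for 13.1% of the 1165 genes whose remaining libraries averaged 5 to 10 CPM, a share that was 0% when any other library was taken in its place. Fold changes are therefore given with all 6 libraries and without WT replicate 2.

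Reference promoters were searched for the p53 response element, which consists of a pair of consensus blocks in tandem. The windows, from RefSeq on GRCm38.p6, run from 250 bases before to 50 after an annotated start, and 8 of the 10 genes had a window that was searched. The search, which reads the same on both strands because the consensus is palindromic, allowed 1 mismatch over the pair and 0 or 1 base between the blocks. The element was found for Ccng1, Cdkn1a and Bax, and 0.177% of 32851 windows of the same length held one. That share is of windows, not of genes, and these genes had been chosen as known p53 targets. The elements are shown because Ccng1 gave the largest difference in mean CPM among the 10 genes, and those of Cdkn1a and Bax allow its element to be compared. Capitals mark the consensus blocks, and each sequence is written 5′ to 3′ on the strand of the gene.
Ccng1 (chr11:40755442-40755501, minus strand): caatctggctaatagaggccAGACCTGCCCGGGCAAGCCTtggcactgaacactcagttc
Cdkn1a (chr17:29090908-29090967, plus strand): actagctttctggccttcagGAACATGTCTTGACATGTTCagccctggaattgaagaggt
Bax (chr7:45467070-45467130, minus strand): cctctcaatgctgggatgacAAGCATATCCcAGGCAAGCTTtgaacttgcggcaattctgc

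The element began 195 bases upstream of the start for Ccng1, 51 bases for Cdkn1a and 212 bases for Bax. Cdkn1a has a second annotated start, whose window held no such element. A consensus block without mismatch was found in the windows of Trp53, Mdm2 and the downstream of the annotated starts of Sesn1. The windows that held the element for Ccng1, Cdkn1a and Bax also held such a block. Of all windows, with or without the element, 8.36% held one. The windows of Phlda3 and Bbc3 held neither, which says only that these letters are not in those windows.

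All 10 genes were detected, and their levels differed widely when divided by the merged exon length (GENCODE vM21). Bax was highest at 75.6 ± 5.48 CPM per kb (SD, n = 6), followed by Pmaip1 at 57.7 ± 10.0, Ccng1 at 42.2 ± 12.4, Trp53 at 31.2 ± 2.76 and Cdkn1a at 30.9 ± 5.95 CPM per kb. Below these were Sesn1 at 19.7 ± 2.12, Mdm2 at 17.3 ± 1.37, Bbc3 at 16.5 ± 5.17, Phlda3 at 3.80 ± 2.43 and Zmat3 at 1.52 ± 0.265 CPM per kb. Among the 14757 genes with a length, Bax was above 95.7%, Trp53 above 89.5% and Zmat3 above 39.1%. Neighbors in this order overlapped in their values over the 6 libraries except at 2 steps, between Cdkn1a (lowest 24.8) and Sesn1 (highest 22.2 CPM per kb) and between Bbc3 (lowest 7.92) and Phlda3 (highest 6.30 CPM per kb). With the length of the longest transcript instead, 5 genes kept their place, and Cdkn1a moved from rank 5 to rank 3 with 52.8 CPM per kb.

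**Figure D1:**
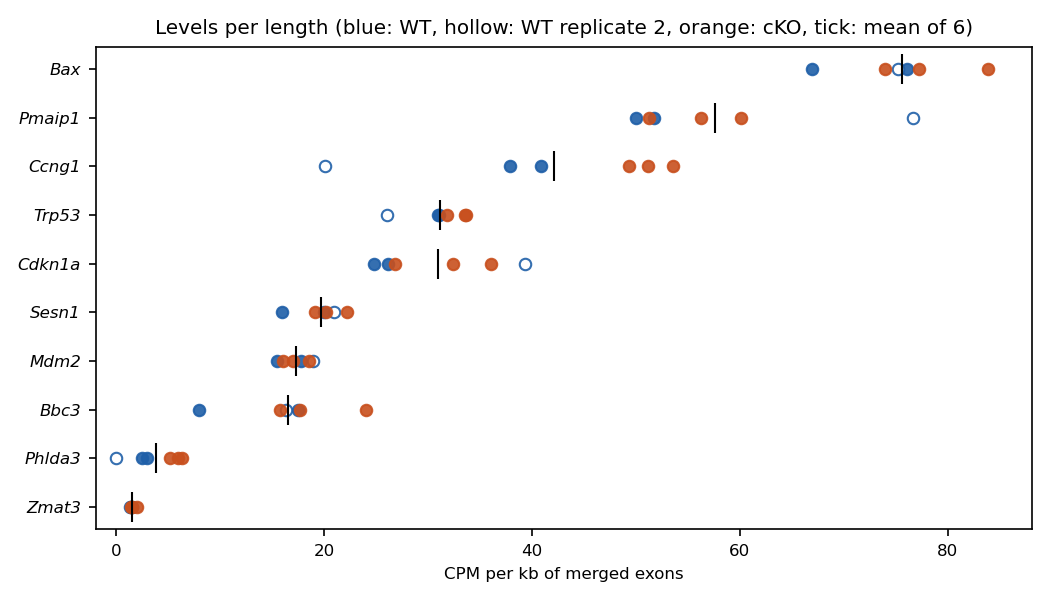
Level of p53 and its 9 target genes as CPM per kb of merged exons, with 1 point per library (blue WT, hollow WT replicate 2, orange cKO) and a tick at the mean of the 6 libraries. Bax sits highest, between 66.9 and 83.9 CPM per kb, and Zmat3 lowest, between 1.29 and 2.03 CPM per kb.

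Ku70 loss was then compared with WT. Trp53, Ccng1 and Phlda3 were higher in every cKO library than in every WT library. An unadjusted p from edgeR was under 0.05 for Ccng1 in both comparisons and for Phlda3 without WT replicate 2. Cdkn1a, Mdm2, Bax, Bbc3, Pmaip1, Sesn1 and Zmat3 overlapped between the groups with all 6 libraries, Cdkn1a through WT replicate 2 alone. With all 6 libraries, 8 of the 10 genes had a log2 fold change above 0 (54.5% of the 15315 genes tested did), and the median was 0.14, beside 0.04 for all genes tested. Without WT replicate 2, 10 of 10 were above 0 (48.6% of 15302 genes), and the median was 0.19, beside -0.01 for all genes. The lowest of these was Mdm2, at 0.05. The 10 genes were chosen with earlier results of these data known, so these counts describe them and are no test. None of the 10 passed adjustment over all genes in edgeR's quasi-likelihood test, which called 0 genes (0%) with all 6 libraries and 1 gene (0.00654%), Xrcc6, without WT replicate 2. At an unadjusted p under 0.05, 1 of the 10, Ccng1, was higher with all 6 libraries (0.940% of all genes were), and 2, Ccng1 and Phlda3, were higher without WT replicate 2 (1.52% of all genes).
Every cKO library was above every WT library for 3 of the 10 genes, Trp53, Ccng1 and Phlda3, which held for 5.01% of all genes. Without WT replicate 2 it held for 4, with Cdkn1a added, and for 8.48% of all genes. The lowest value was in a WT library for all 10 genes, and for 66.4% of all genes. Without WT replicate 2 it was so for 9 of 10, all but Zmat3, and for 42.5% of all genes. The summed level of the 10 genes was 798, 872 and 821 CPM (WT) against 927, 955 and 939 CPM (cKO). Without Ccng1 the sums were 654, 802 and 688 CPM (WT) against 754, 767 and 759 CPM (cKO), which overlap through WT replicate 2 alone. In bulk libraries a change in the share of cells that express a gene and a change in RNA per cell cannot be told apart.

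**Figure D2:**
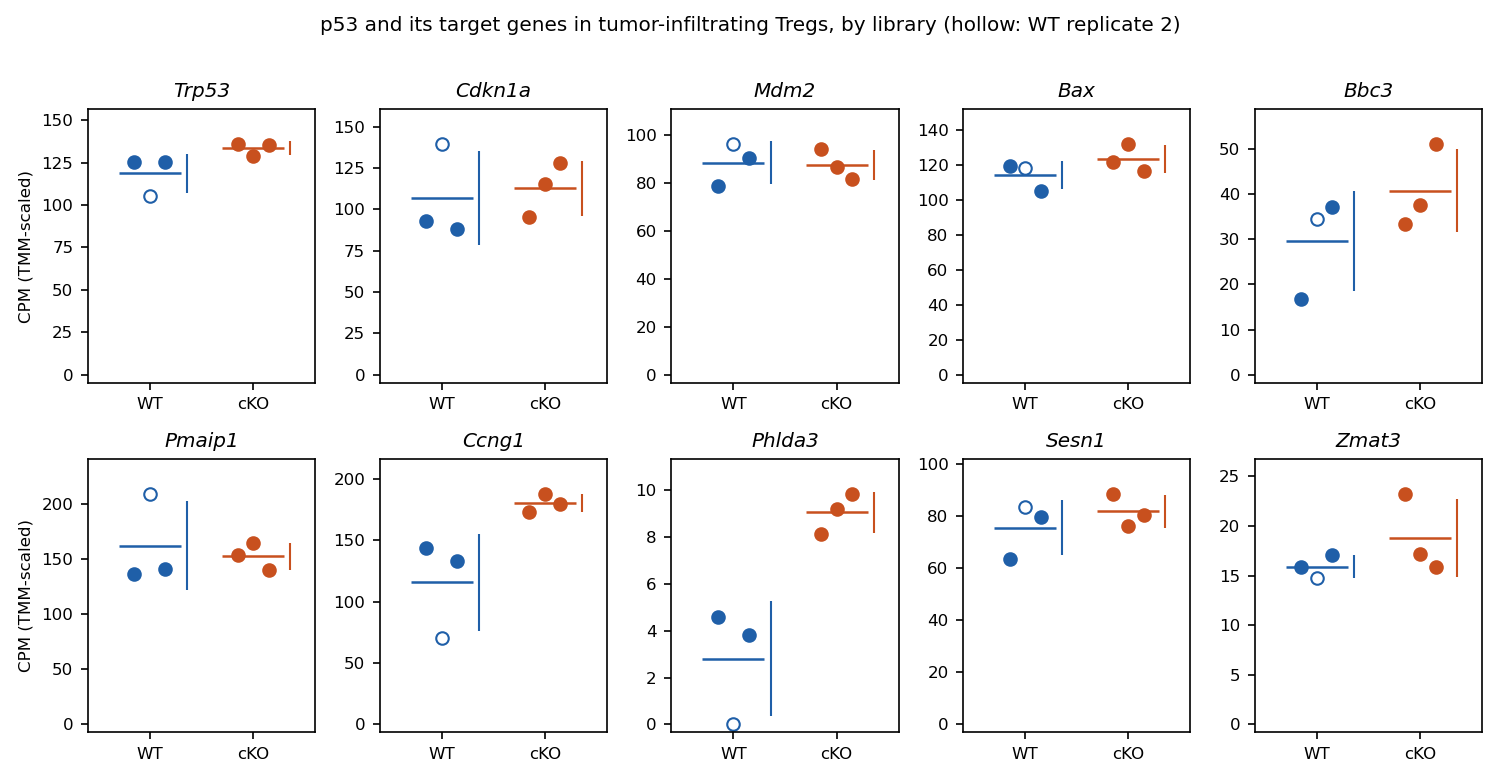
CPM of p53 and its 9 target genes, with 1 point per library, a bar at the group mean and a vertical line of 1 SD to each side (n = 3), for WT (blue, WT replicate 2 hollow) and cKO (orange). The cKO points lie above all WT points for Trp53, Ccng1 and Phlda3, and WT replicate 2 is the highest library for Cdkn1a, Mdm2 and Pmaip1.

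Trp53 (chromosome 11, 69580359 to 69591873) was at 125, 105 and 125 CPM (WT) against 136, 129 and 136 CPM (cKO). The groups did not overlap, but the gap was small and WT replicate 2 was the lowest library. The log2 fold change was 0.17 (95% interval -0.14 to 0.48, unadjusted p = 0.245 from edgeR), and 0.09 (-0.20 to 0.38) without WT replicate 2. By an exact permutation test (two-sided), which cannot go below 0.1 with 3 libraries against 3, p was 0.1 for Trp53, Ccng1 and Phlda3 and 0.3 to 0.9 for the other 7 genes.
Mdm2 (chromosome 10, 117688875 to 117710758), the ligase that feeds back on p53, was at 78.6, 96.2 and 90.5 CPM (WT) against 94.1, 86.6 and 81.5 CPM (cKO). The groups covered the same range. Its log2 fold change was -0.02 (95% interval -0.34 to 0.31, unadjusted p = 0.908 from edgeR), and 0.05 (-0.26 to 0.35, unadjusted p = 0.733 from edgeR) without WT replicate 2, so that a rise above 1.27-fold lay outside the interval.

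Ccng1 (chromosome 11, 40748552 to 40755311) encodes cyclin G1, a p53 target that recruits a phosphatase to Mdm2 and so belongs to the same feedback. It was at 144, 70.5 and 133 CPM (WT) against 173, 188 and 180 CPM (cKO). All 3 cKO libraries were above every WT library, and WT replicate 2 was the lowest by far. The means were 116 ± 39.5 CPM (WT) and 180 ± 7.43 CPM (cKO; SD, n = 3), giving a log2 fold change of 0.64 (95% interval 0.03 to 1.25, unadjusted p = 0.0415, adjusted p = 0.984 from edgeR). Without WT replicate 2, the WT mean was 138 ± 7.55 CPM (SD, n = 2), and the log2 fold change was 0.38 (0.07 to 0.69, unadjusted p = 0.0212, adjusted p = 0.997 from edgeR).
Both unadjusted p-values rose above 0.05 when certain single libraries were left out, while the log2 fold change stayed above 0. With all 6 as the start, p from edgeR was 0.0529 without WT replicate 3 and 0.0755, 0.0972 and 0.0842 without cKO replicates 1, 2 and 3. The log2 fold changes of these fits were 0.75, 0.67, 0.61 and 0.64 in that order. With WT replicate 2 already left out, p was 0.0848 without WT replicate 3 and 0.0618 and 0.0778 without cKO replicates 2 and 3, while the log2 fold change stayed between 0.33 and 0.44. Ccng1 has the match to the response element printed above, as do Cdkn1a and Bax, whose groups differed less. Binding of p53 to these sequences was not tested.

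Phlda3 (chromosome 1, 135766119 to 135769136) encodes a small lipid-binding protein that restrains the AKT kinase. Its counts were 96, 0 and 73 (WT) against 175, 191 and 221 counts (cKO), which is 4.59, 0 and 3.80 CPM against 8.12, 9.18 and 9.83 CPM. Every cKO library was well above WT replicates 1 and 3, and WT replicate 2 had no count, for which 3 counts, or 0.141 CPM, are the limit. With all 6 libraries the log2 fold change was 1.69 with a 95% interval from -1.21 to 4.59 (unadjusted p = 0.213 from edgeR). Without WT replicate 2 the means were 4.20 ± 0.554 CPM (WT; SD, n = 2) and 9.04 ± 0.862 CPM (cKO; SD, n = 3), giving a log2 fold change of 1.11 (0.58 to 1.63), or 2.15-fold between the means.
Its unadjusted p without WT replicate 2 was 0.00109, and its adjusted p was 0.997 from edgeR and 0.0941 from DESeq2. Leaving out any further library kept the log2 fold change between 0.98 and 1.25 and the unadjusted p at or under 0.00728. With all 6 libraries, 2 of 13 alternatives gave a p under 0.05, the one without WT replicate 2 and limma's voom with quality weights (unadjusted p = 0.039).

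Cdkn1a (chromosome 17, 29090976 to 29100727) encodes p21, the inhibitor of cyclin-dependent kinases through which p53 arrests the cell cycle. It was at 92.9, 140 and 88.0 CPM (WT) against 95.2, 115 and 128 CPM (cKO). WT replicate 2 was the highest of all libraries, and without it each cKO library was above the WT libraries, cKO replicate 1 by the smallest step (95.2 against 92.9 CPM). The log2 fold change was 0.08 (95% interval -0.43 to 0.59, unadjusted p = 0.725 from edgeR) with all 6 libraries and -0.0050 when scaled by library size only, so its sign differed between settings. With WT replicate 2 left out it was 0.32 (-0.04 to 0.69, unadjusted p = 0.0783 from edgeR), and with cKO replicate 1 left out as well it was 0.44 (unadjusted p = 0.0156 from edgeR). Exons of Cdkn1a overlap those of AC167363.2 on the other strand, and whether counting used the strand is not given in the sources used here.

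The apoptosis targets were Bax, Bbc3 and Pmaip1, of which Bax forms the pores in mitochondria and the other two (PUMA and NOXA) release it from its inhibitors. Bax (chromosome 7, 45461697 to 45466898) was at 120, 119 and 105 CPM (WT) against 122, 132 and 117 CPM (cKO). The groups overlapped, with a log2 fold change of 0.11 (95% interval -0.20 to 0.42, unadjusted p = 0.439 from edgeR) and of 0.13 (-0.18 to 0.45) without WT replicate 2. Exons of Bax overlap those of Gm45808 on the same strand, a gene without a row of its own in the table, so reads from the overlap cannot be separated.
Pmaip1 (chromosome 18, 66458533 to 66465565) was at 137, 209 and 141 CPM (WT) against 154, 164 and 140 CPM (cKO). The 5 libraries other than WT replicate 2 lay within 137 to 164 CPM. Its log2 fold change was -0.09 (95% interval -0.55 to 0.37, unadjusted p = 0.661 from edgeR), and 0.13 (-0.18 to 0.45) without WT replicate 2.
Bbc3 (chromosome 7, 16308393 to 16318205) varied most among the apoptosis targets, with 16.8, 34.6 and 37.2 CPM (WT) against 33.5, 37.6 and 51.1 CPM (cKO). WT replicate 1 was low and cKO replicate 3 high, and the other 4 libraries were within 33.5 to 37.6 CPM. The log2 fold change was 0.46 (95% interval -0.29 to 1.22, unadjusted p = 0.192 from edgeR). Leaving out WT replicate 2 gave 0.60 (-0.12 to 1.31, unadjusted p = 0.0916 from edgeR). It then hung on the WT library that remained, with 0.13 when WT replicate 1 was also left out and 1.28 (unadjusted p = 0.0015 from edgeR) when WT replicate 3 was. Quality weights in limma gave 0.78 (unadjusted p = 0.0373) without WT replicate 2. Summed over 11 macrophage and dendritic cell markers, WT replicate 1 was also lowest (195 CPM) and cKO replicate 3 highest (1032 CPM). The sums of WT replicates 2 and 3 and cKO replicates 1 and 2 were 690, 701, 237 and 551 CPM, beside Bbc3 at 34.6, 37.2, 33.5 and 37.6 CPM. The part of such cells in the Bbc3 values was not tested.

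Sesn1 and Zmat3 act outside arrest and apoptosis. Sesn1 (chromosome 10, 41809935 to 41908424), a stress protein that restrains the growth kinase complex mTORC1, was at 63.6, 83.3 and 79.6 CPM (WT) against 88.5, 76.2 and 80.5 CPM (cKO). The groups overlapped, with a log2 fold change of 0.11 (95% interval -0.24 to 0.47, unadjusted p = 0.479 from edgeR) and of 0.19 (-0.14 to 0.52) without WT replicate 2. With WT replicate 3 left out as well, so that WT replicate 1 stood alone, it was 0.36 (unadjusted p = 0.0479 from edgeR). Zmat3 (chromosome 3, 32334792 to 32366014), an RNA-binding zinc finger protein, was at 15.9, 14.7 and 17.1 CPM (WT) against 23.2, 17.2 and 15.9 CPM (cKO). Only cKO replicate 1 lay clearly outside the WT range, and the log2 fold change was 0.24 (-0.33 to 0.81, unadjusted p = 0.360 from edgeR) and 0.18 (-0.24 to 0.61) without WT replicate 2.

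**Figure D3:**
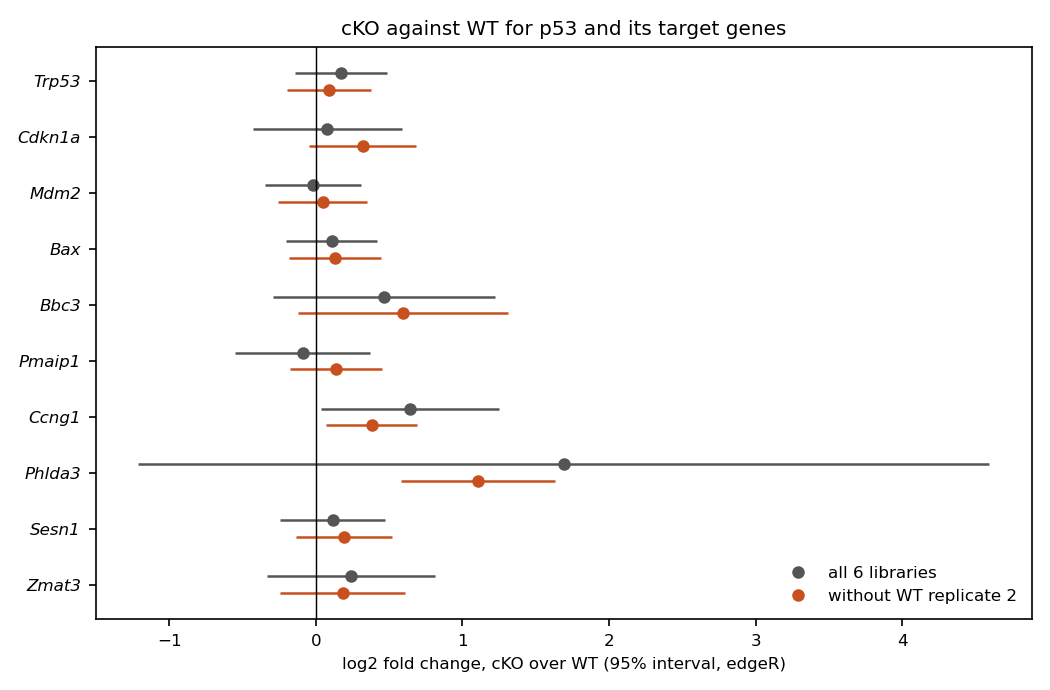
Log2 fold change of cKO over WT from edgeR for p53 and its 9 target genes, with 95% intervals, for all 6 libraries (grey) and without WT replicate 2 (orange). The intervals exclude 0 for Ccng1 in both fits and for Phlda3 only without WT replicate 2, where the interval narrows from -1.21 to 4.59 down to 0.58 to 1.63.

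Other genes of the pathway were taken from lists of 36 further p53 targets, 22 regulators and cofactors of p53, the p53 paralogs, and 29 cell cycle genes that p53 represses by way of p21. Among all genes tested, 54.5% were higher in the cKO group with all 6 libraries and 48.6% without WT replicate 2. Of the 36 targets, 18 were higher and 18 lower with all 6 libraries (median log2 fold change 0.00), and 0 had an unadjusted p under 0.05 in edgeR. With WT replicate 2 left out, 22 were higher and 14 lower (median 0.12), and 4 had an unadjusted p under 0.05, all higher in the cKO group, beside 1.52% of all genes, and 0 passed adjustment. The 4 were Psrc1, Gtse1, Ppm1d and Plk2. None of them kept that limit under all 8 alternatives of this comparison, which Psrc1 and Gtse1 passed in 6, Ppm1d in 4 and Plk2 in 3, with a highest p of 0.0688, 0.0807, 0.125 and 0.281 in that order.
Ppm1d encodes the phosphatase WIP1, which switches p53 signaling off. It was at 33.6, 14.8 and 32.0 CPM (WT) against 41.9, 38.8 and 42.7 CPM (cKO), a log2 fold change of 0.62 with all 6 libraries (unadjusted p = 0.0805 from edgeR) and of 0.33 without WT replicate 2 (unadjusted p = 0.0315 from edgeR). Its groups did not overlap. Every cKO library was above every WT library for 4 of the 36 targets, Ppm1d, Psrc1 and Gtse1 among them, and below for 1. Among all genes 5.01% were above in this way. Psrc1, a microtubule-binding protein, was at 4.54, 0 and 5.06 CPM (WT) against 7.01, 7.64 and 8.05 CPM (cKO), a log2 fold change of 1.24 with all 6 libraries (unadjusted p = 0.356 from edgeR) and of 0.66 without WT replicate 2 (unadjusted p = 0.0179 from edgeR).
Gtse1, a mitotic protein that binds p53, had the same shape, with 3.78, 0 and 3.34 CPM against 4.87, 7.45 and 6.36 CPM in the same order. Its log2 fold change was 1.39 with all 6 libraries (unadjusted p = 0.306 from edgeR) and 0.81 without WT replicate 2 (unadjusted p = 0.0203 from edgeR). Like Phlda3, Psrc1 and Gtse1 were at 0 in WT replicate 2. Plk2, a stress-induced kinase, was instead highest in WT replicate 2 at 103 CPM, against 30.6 and 48.5 CPM in WT replicates 1 and 3 and 53.8, 52.7 and 57.7 CPM in cKO replicates 1, 2 and 3. Its log2 fold change was -0.15 with all 6 libraries and 0.47 without WT replicate 2 (unadjusted p = 0.0388 from edgeR), so it turned with that library.
The 3 most abundant of the further targets varied more between libraries than between groups. Btg2, an antiproliferative gene, averaged 897 ± 366 CPM (WT) and 934 ± 241 CPM (cKO; SD, n = 3). Ddit4, an inhibitor of mTORC1, averaged 364 ± 39.2 and 351 ± 34.7 CPM. Trp53inp1, a p53-induced nuclear protein, was at 197, 185 and 257 CPM (WT) against 189, 198 and 189 CPM (cKO). The log2 fold changes of Btg2, Ddit4 and Trp53inp1 were 0.06, -0.05 and -0.15 with all 6 libraries. In the comparison that omits WT replicate 2 they were 0.32, -0.09 and -0.24, with unadjusted p-values of 0.348, 0.613 and 0.160 from edgeR.

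Of the 22 regulators and cofactors, 9 were higher and 13 lower with all 6 libraries (median log2 fold change -0.14), and 1 was lower at an unadjusted p under 0.05, as 0.868% of all genes were. This was Trp53bp1, the gene of 53BP1, which steers breaks toward end joining. It was at 26.8, 45.5 and 33.3 CPM (WT) against 27.0, 20.5 and 23.8 CPM (cKO), so that cKO replicate 1 lay inside the WT range, with a log2 fold change of -0.57 (unadjusted p = 0.0498 from edgeR) and of -0.34 without WT replicate 2 (unadjusted p = 0.0678 from edgeR). Of 13 alternatives to the first value, 4 kept it under 0.05. Without WT replicate 2, 7 were higher and 15 lower (median -0.06). At an unadjusted p under 0.05 in edgeR 1, Trp53bp2, was then higher, as 1.52% of all genes were. Trp53bp2, which encodes the p53 cofactor ASPP2, was at 18.5, 34.2 and 18.9 CPM (WT) against 26.1, 22.6 and 23.3 CPM (cKO), a log2 fold change of 0.36 without WT replicate 2 (unadjusted p = 0.0292 from edgeR, under 0.05 in 2 of 8 alternatives) and of 0.01 with it.
The ribosomal proteins Rpl11 and Rpl5, which can bind Mdm2, and the acetyltransferase gene Crebbp were the most abundant of this list. Rpl11 was at 631 CPM and Rpl5 at 378 CPM in WT replicate 2, under all other libraries, and their log2 fold changes were 0.31 and 0.41 with it and -0.02 and 0.05 without it. Crebbp had its highest level in that library, 333 CPM, and a log2 fold change of -0.45 with it and of -0.04 without it. Of the p53 paralogs, Trp73 was low, at 0 to 11 counts (0 to 0.510 CPM), and Trp63 was not among the listed genes.

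The 29 cell cycle genes had a median log2 fold change of 0.09 with all 6 libraries. Of them 20 were higher and 9 lower, where 54.5% of all genes were higher. Without WT replicate 2 the median was -0.05. In that comparison 10 were higher and 19 lower, where 48.6% of all genes were higher. With all 6 libraries 2 were lower at an unadjusted p under 0.05 in edgeR, E2f1 and Cdk1, where 0.868% of all genes were. Without WT replicate 2 it was 1, E2f1, where 1.50% of all genes were lower at that limit. E2f1, a transcription factor of S-phase entry, was at 14.8, 33.1 and 9.22 CPM (WT) against 9.56, 7.40 and 7.38 CPM (cKO). Its log2 fold change was -1.23 (unadjusted p = 0.0355 from edgeR) and -0.57 without WT replicate 2 (unadjusted p = 0.0452 from edgeR), and cKO replicate 1 lay inside the WT range. The latter value was -0.19 (unadjusted p = 0.505 from edgeR) when WT replicate 1 was also left out, and 3 of its 8 alternatives gave a p under 0.05.
Cdk1, the kinase of mitotic entry, was at 15.1, 25.9 and 10.9 CPM (WT) against 9.88, 10.4 and 7.61 CPM (cKO). These groups did not overlap, with a log2 fold change of -0.90 (unadjusted p = 0.0472 from edgeR) and of -0.49 without WT replicate 2 (unadjusted p = 0.0556 from edgeR). The most abundant genes of the list, the replicative helicase subunits Mcm6, Mcm4 and Mcm3, had log2 fold changes of 0.09, 0.02 and 0.09 with all 6 libraries and of -0.10, 0.11 and -0.03 without WT replicate 2, each within its standard error. With all 6 libraries, the unadjusted p was under 0.05 in 8 of 13 alternatives for E2f1 and in 6 of 13 for Cdk1.

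**Figure D4:**
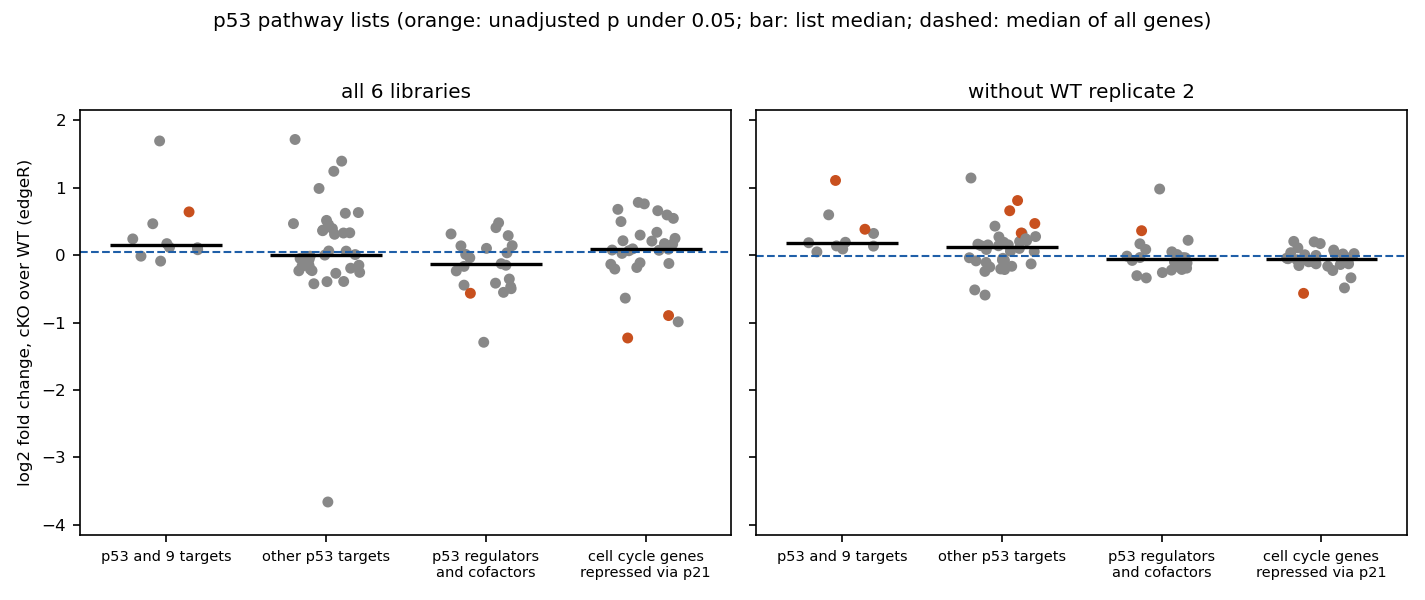
Log2 fold change of cKO over WT from edgeR for each gene of 4 lists, with all 6 libraries (left) and without WT replicate 2 (right). Orange points have an unadjusted p under 0.05, bars are list medians and the dashed line is the median of all genes tested. The medians of p53 and its 9 targets were 0.14 and 0.19, and those of the cell cycle genes 0.09 and -0.05.

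Markers of other cells were present in the sorted libraries, and Lyz2, a macrophage gene, was at 129, 474 and 500 CPM (WT) against 170, 323 and 625 CPM (cKO), above Foxp3 in 4 of the 6 libraries. Of 7 neutrophil markers with counts, 3 (S100a9, Retnlg and Ngp) were higher in cKO libraries at an unadjusted p under 0.05 from edgeR. This held with and without WT replicate 2. Among all genes, 0.940% (all 6 libraries) and 1.52% (without WT replicate 2) were higher at that limit. All 3 were low even in the cKO libraries, with S100a9 at 1.11 to 1.91, Retnlg at 0.625 to 1.51 and Ngp at 0.311 to 0.384 CPM. Retnlg and Ngp were at 0 in the WT group. The neutrophil list summed to 2.58 to 11.0 CPM (WT) and 8.54 to 14.6 CPM (cKO). Macrophage and dendritic cell markers summed to 195 to 701 CPM (WT) and 237 to 1032 CPM (cKO), with 0 of 11 higher at that limit. The dendritic cell marker Xcr1 was lower at that limit without WT replicate 2, as 1.50% of all genes were. B cell markers summed to 14.7 to 23.7 and 12.0 to 48.3 CPM, with 1 of 5, Pax5, higher at that limit with all 6 libraries. These 6 marker genes were named after their values were seen. CD8 T and NK cell markers, epithelial and tumor cell markers, and stromal and endothelial markers overlapped between the groups, with 0 called. The part of other cells in the values of p53 and its targets was not tested.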

How the data were processed

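RNA was sequenced in pairs and, per the methods, cleaned reads were mapped to GRCm38 by the authors. The table that the authors deposited held estimated counts by gene symbol, unnormalized. The submitters' processing notes name Bowtie2 (version 2.3.4.3) and RSEM (version 1.3.1), and the annotation is not given in the sources used here. Non-whole values made up 21.6% of the table, and all values were rounded before testing. The replicates differed by more than sampling noise, and each library was used as 1 sample. Counts were tested with edgeR (version 4.0.16) in R (version 4.3.3), by its quasi-likelihood test of cKO against WT with TMM scaling and Benjamini-Hochberg adjustment over all genes with at least 1 count (15315 genes, and 15302 without WT replicate 2). Intervals are 95% intervals of the log2 fold change. Exact permutation tests were two-sided on log2(CPM + 0.5). The limit that a count of 0 allows (3 counts) covers counting error only. Symbols were matched to GENCODE vM21 for 14760 genes.

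Genes were named by rule: p53 and its 9 targets, Xrcc6, the most abundant members of the pathway lists (3 each) and of the Treg markers, up to 5 genes per pathway list with an unadjusted p under 0.05, and the p53 paralogs. Members, lists and rule were chosen with earlier results of these data known. The comparison with all 6 libraries was recomputed with DESeq2 (version 1.42.0), scaling by median of ratios or by library size alone, filterByExpr, voomWithQualityWeights from limma (version 3.58.1), robust dispersion estimates, a block for the replicate number, and one library omitted at a time. The comparison without WT replicate 2 was recomputed only with DESeq2, library size alone, voomWithQualityWeights and a further library omitted. Levels per length were recomputed with the longest transcript. Omitting a further library beside WT replicate 2, and recomputing the named genes of the other lists, were chosen after the data had been seen. The scripts were tested on simulated data. All simulated libraries shared the dispersion of each gene, so the zeros particular to WT replicate 2 were not reproduced.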

Additional observations from a re-analysis of the deposited data

How the results depend on the processing

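The number of genes passing adjustment was 0 in edgeR with all 6 libraries, 2 in DESeq2 and 0 to 1 when a library was left out (1 without WT replicate 2). In the comparison without WT replicate 2 it was 1 in edgeR, 3 in DESeq2 and 0 to 1 when a further library was left out. At an unadjusted p under 0.05, edgeR had 144 genes as higher and 133 as lower. DESeq2 gave 95 and 212, voomWithQualityWeights 262 and 281, and filterByExpr 39 higher. Leaving out a library gave 45 (without cKO replicate 3) to 287 (without WT replicate 3) higher and 20 (without cKO replicate 3) to 601 (without WT replicate 1) lower. In the comparison without WT replicate 2, the counts of 232 and 229 became 83 (without cKO replicate 3) to 712 (without WT replicate 3) higher and 103 (without cKO replicate 3) to 541 (without WT replicate 3) lower. Where a single WT library was left, it was assumed to vary like the cKO libraries.
The replicate block gave 39 higher and 46 lower. Same-numbered libraries did not all deviate together. The correlations of their deviations from the group means were 0.114, -0.0941 and 0.211 for replicates 1, 2 and 3. Those of differently numbered libraries ran from -0.28 (WT replicate 1 with cKO replicate 3) to 0.161 (WT replicate 1 with cKO replicate 2). The numbers were not taken as pairs, although the highest correlation was between same-numbered libraries.
Xrcc6 passed adjustment in DESeq2 (log2 fold change -3.05) and without WT replicate 2 (-2.38), and when a library was left out it ranged from -3.33 to -2.38. The median log2 fold change of p53 and its 9 targets was 0.0806 with library size only and 0.1365 to 0.186 when a library was left out. The order of levels per length kept 5 of 10 places with the longest transcript.
The sign turned for 3 of the 10 genes, none of which passed a threshold with all 6 libraries. Cdkn1a was at -0.0050 with library size only and between -0.0356 (without WT replicate 3) and 0.3203 (without WT replicate 2) when a library was left out. For Mdm2 these values were -0.0949 (without WT replicate 1) and 0.0468 (without WT replicate 2), with 0.0042 without WT replicate 3 and 0.0309 without cKO replicate 3. In the comparison without WT replicate 2 they were -0.05 (WT replicate 1 also left out) and 0.1519 (WT replicate 3 also left out). Pmaip1 was at 0.0879 with voomWithQualityWeights, and its lowest and highest values were -0.2007 (without WT replicate 1) and 0.1349 (without WT replicate 2). Among the other listed genes named, whose recomputation was added after seeing the data, those that turned sign without WT replicate 2 were Btg2 (-0.1066 to 0.934), Ddit4 (-0.221 to 0.0636), Rpl11 (-0.201 to 0.1805, 0.0276 with voomWithQualityWeights), Rpl5 (-0.0464 to 0.195), Crebbp (-0.27 to 0.2425), Mcm6 (-0.337 to 0.1852), Mcm4 (-0.0034 to 0.228) and Mcm3 (-0.231 to 0.2063). With all 6 libraries Plk2 turned to 0.3794 with voomWithQualityWeights, 0.0352 with the replicate block and 0.4674 without WT replicate 2 (lowest value -0.4703, without WT replicate 1). Trp53bp2 turned to -0.0721 with library size only, and its extremes on leaving out a library were -0.1444 (WT replicate 1) and 0.361 (WT replicate 2). The other 7 of p53 and its 9 targets kept a log2 fold change above 0 under all 13 alternatives. The cause of these changes was not tested. At 0 to 221 counts per library, Phlda3 had the fewest counts of the 10 genes.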
